A study of Mus musculus with 9 samples.

Results

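Megakaryocytes, the bone marrow cells that release platelets, were followed through 10 genes of their granules and cytoskeleton: Pf4, Ppbp, Thbs1, Vwf, Mmrn1, Treml1, Rab27b, Plek, Tubb1 and Nfe2. The genes were taken by name from 36413 gene and region names on the arrays. Earlier results of these data were known, so the list was not chosen blind. All 10 were found, each with 1 probe except Rab27b, which had 2 and was read from the probe with the higher mean. All 11 probes were well above background on all 9 arrays and none was saturated, so every member entered the tests.

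RNA was measured on 1-colour Agilent arrays in LSK cells, mouse bone marrow cells sorted as negative for lineage markers and positive for Sca1 and cKit, a population enriched for blood stem cells and their early progeny. There were 3 groups of 3 cultures, all from female mice that carried Gt(ROSA)26Sor CreERT2, a tamoxifen-activated Cre at a locus active in nearly all cells. Controls are labelled with that Cre alone, Drosha-deleted cells carried Drosha fl/fl with it, and Dicer-deleted cells carried Dicer fl/fl with it. All groups, controls included, were kept for 72 h in wells of 50000 cells with 250 nM 4OH-tamoxifen, 10% serum, stem cell factor at 50 ng/mL, and 10 ng/mL of IL-3 and of IL-6. The age of the mice is not given in the sources used here, nor whether the 3 cultures of a group had separate donors. The p-values therefore cover the spread among these cultures, which may be technical, and their precision is limited by the number of arrays. Drosha and Dicer carry out successive cuts in the making of microRNAs, and the comparisons ask how RNA levels differed after loss of either enzyme.

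Megakaryocytes arise from stem and progenitor cells, become polyploid and pack proteins into granules before they shed platelets. Alpha granules hold chemokines, clotting and adhesive proteins, and dense granules hold small molecules such as ADP and serotonin. Microtubules built with a lineage-specific tubulin drive the formation of proplatelets, and the transcription factor NF-E2 is needed for platelet release. Several of these genes are also used elsewhere: Vwf in endothelium and in platelet-biased stem cells, Thbs1 and Plek in monocytes, and Nfe2 in red cell precursors. The RNA came from whole cultures, so fewer cells of a type and less RNA per cell cannot be told apart.

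The levels given below are the authors' log2 values unless the scanner signal is named. Drosha RNA stood at 8.81 to 9.32 in the Drosha-deleted cultures and 11.85 to 12.16 in the other 6, and Dicer1 at 8.97 to 9.18 in the Dicer-deleted cultures and 9.92 to 10.80 in the others, which goes with the labels. Drosha fell by 2.91 in its deletion (adjusted p = 0.000152 in limma), while the Dicer1 difference of −1.24 in its own did not pass (adjusted p = 0.118). The Drosha difference was −2.56 in the scanner signal of all 9 arrays (adjusted p = 0.0903), and without control replicate 1 Dicer1 passed (−1.42, adjusted p = 0.00263). Whether the probes lie in the deleted parts is not given in the sources used here. Megakaryocyte receptors were well above background throughout, with 17 of 17 genes on 8 arrays and 16 on Dicer-deleted replicate 3, and of 8 LSK markers 7 or 8 were, Kit and Ly6a (Sca1) among the genes measured.

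The control columns limit every comparison with controls. In the scanner file of control replicate 2 the median signal was 529, against 31.0 to 53.8 on the other arrays, and 18.9% of spots were marked non-uniform. After subtraction of each probe's mean, the authors' column for that sample correlated across 26818 probes at −0.01 with its own file and at 0.80 with the file of control replicate 3, whereas the other 8 columns reached 0.89 to 0.96 with their own. The columns of control replicates 2 and 3 also stood apart together from the rest. The SD of their difference was 0.29, against 0.54 to 0.69 when either was set against any other column. For pairs that held neither it was 0.27 to 0.46. By slide code, 8 files shared a slide and a scan, and that of control replicate 3 came from another slide and scan. The members' counts against controls are therefore also given with control replicate 1 as the only control, a choice made after the data were seen, and without control replicate 1. With 1 control array the spread comes from the 2 deletion groups alone, and the lone control is assumed to vary as they do, so p-values under that choice hold no control spread and counts under it are descriptions. With the scanner signal on all 9 arrays the median of all features moved by 0.36 and 0.38 for Drosha-deleted and Dicer-deleted cells against controls, and with control replicate 2 left out it lay at −0.02 and 0.01.

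Pf4 and Ppbp encode platelet factor 4 and pro-platelet basic protein, CXC chemokines of the alpha granule whose genes are neighbours on chromosome 5. Their probes lie at chr5:91202275-91202334 and chr5:91198970-91199029 on mm9. The 250 bases before the start of each gene are shown because the pair lie side by side and their levels went together across the 9 columns (r = 0.90, a description over columns that share groups and a slide). The window of Mmrn1, the member with the largest mean difference in Drosha-deleted cells, is shown beside them. The sequences are from RefSeq on GRCm38.p6, at chr5:90772185-90772434, chr5:90768268-90768517 and chr6:60944067-60944316, all on the plus strand, and this build differs from that of the probes. Capitals mark GATA with its reverse complement TATC, the core letters that GATA factors recognise, and GGAA with its reverse complement TTCC, the core letters of ETS factors.
Pf4: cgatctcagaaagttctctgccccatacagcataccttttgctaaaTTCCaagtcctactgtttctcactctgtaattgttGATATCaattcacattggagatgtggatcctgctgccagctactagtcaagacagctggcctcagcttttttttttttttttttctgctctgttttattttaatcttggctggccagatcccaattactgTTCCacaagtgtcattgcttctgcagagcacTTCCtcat
Ppbp: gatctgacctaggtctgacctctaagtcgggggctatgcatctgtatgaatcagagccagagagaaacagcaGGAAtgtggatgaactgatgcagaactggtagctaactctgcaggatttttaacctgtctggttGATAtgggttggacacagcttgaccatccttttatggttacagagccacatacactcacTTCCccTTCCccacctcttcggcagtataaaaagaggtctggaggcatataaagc
Mmrn1: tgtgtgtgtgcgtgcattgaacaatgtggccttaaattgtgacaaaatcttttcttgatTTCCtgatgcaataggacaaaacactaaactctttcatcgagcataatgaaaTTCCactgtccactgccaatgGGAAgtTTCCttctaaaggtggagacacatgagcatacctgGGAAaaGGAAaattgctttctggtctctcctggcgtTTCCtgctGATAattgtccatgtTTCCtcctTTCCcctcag
The Pf4 window held 2 GATA and 3 GGAA cores, that of Ppbp 1 and 3, and that of Mmrn1 1 and 9. Windows were found for 6 of 10 members (these 3 with Plek, Tubb1 and Treml1), and all 6 held both cores, as did 53.6% of 32851 windows for GATA and 93.4% for GGAA. Longer motifs, searched on both strands, were in 0 of the 6. Of all windows, 9.99% held the GATA motif AGATAA and 6.91% the ETS motif CCGGAAG. The core TGAGTCA, shared by NF-E2 and AP-1, was in 4.46%, and the full NF-E2 motif, which contains it, in 0.134%. The short cores were searched after the longer ones gave no match. A match is a description of letters, not a site.

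Among the granule chemokines, Pf4 and Ppbp had their lowest levels in Dicer-deleted cells. Pf4 read 18.43, 18.40 and 18.39 in control replicates 1 to 3, 18.29, 18.10 and 18.33 in Drosha-deleted replicates 1 to 3, and 18.12, 18.02 and 17.86 in Dicer-deleted replicates 1 to 3. The controls lay within a narrow band, every deletion array was below it, and Dicer-deleted replicate 1 lay just above the lowest Drosha-deleted array. Ppbp read 15.22, 15.15 and 14.42 in controls, 15.06, 13.99 and 14.88 in Drosha-deleted cells, and 13.79, 13.40 and 13.47 in Dicer-deleted cells. Its Dicer-deleted arrays were below all others, while the Drosha-deleted arrays overlapped the controls with replicate 2 low.

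Thbs1, thrombospondin 1, a matrix protein stored in alpha granules (probe chr2:117952585-117952644 on mm9), differed most among replicates. It read 11.07, 12.07 and 10.95 in controls, 11.85, 11.48 and 10.85 in Drosha-deleted cells, and 9.94, 9.55 and 10.69 in Dicer-deleted cells. The Drosha-deleted arrays overlapped the controls, with the highest array a control, and the Dicer-deleted arrays were below both groups, with replicate 3 close to them.

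The adhesive proteins Vwf and Mmrn1 were lower on every array of both deletions than on any control. Vwf, von Willebrand factor, which tethers platelets to collagen (chr6:125636551-125636610 on mm9), read 15.33, 15.22 and 14.85 in controls, 14.62, 14.02 and 14.66 in Drosha-deleted cells, and 14.54, 14.47 and 14.40 in Dicer-deleted cells. Mmrn1, multimerin 1, which binds factor V in alpha granules (chr6:60938883-60938942 on mm9), read 12.99, 13.39 and 12.97 in controls, 11.99, 11.67 and 12.64 in Drosha-deleted cells, and 12.09, 12.21 and 11.53 in Dicer-deleted cells. In both genes the deletions overlapped each other, and the distance from the lowest control to the nearest Drosha-deleted array was smaller than the SD within the Drosha-deleted group.

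Genes of the granule membrane and of granule transport had higher means in controls than in either deletion. Treml1 encodes TLT-1, a receptor of the alpha granule membrane that reaches the platelet surface on activation (chr17:48506365-48506424 on mm9). It read 15.09, 15.74 and 14.65 in controls, 14.67, 13.38 and 14.55 in Drosha-deleted cells, and 14.10, 14.31 and 14.22 in Dicer-deleted cells. Drosha-deleted replicate 1 lay just above the lowest control, Drosha-deleted replicate 2 was far below every other array, and the Dicer-deleted arrays were close together beneath the controls.

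Rab27b, a small GTPase that moves and docks granules, read 13.84, 14.55 and 14.35 in controls, 13.46, 13.07 and 13.84 in Drosha-deleted cells, and 13.22, 13.26 and 12.87 in Dicer-deleted cells. Drosha-deleted replicate 3 lay below control replicate 1 by less than the second decimal, and the Dicer-deleted arrays were clear of the controls. Its second probe had group means of 12.52 ± 0.24, 11.83 ± 0.36 and 11.60 ± 0.21 (SD, n = 3) for control, Drosha-deleted and Dicer-deleted cells, in the same order as the first.

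Of the signalling and cytoskeletal members, Plek stood lowest in Dicer-deleted cells and Tubb1 overlapped in all groups. Plek, pleckstrin, a main target of protein kinase C in platelets (chr11:16871476-16871535 on mm9), read 15.50, 15.88 and 15.85 in controls, 15.36, 15.24 and 15.75 in Drosha-deleted cells, and 15.30, 14.97 and 14.89 in Dicer-deleted cells. Tubb1, the beta-1 tubulin of proplatelets and the platelet's marginal band (chr2:174283277-174283336 on mm9), read 6.60, 7.60 and 6.48 in controls, 7.01, 6.83 and 6.75 in Drosha-deleted cells, and 6.76, 6.41 and 6.19 in Dicer-deleted cells. Its high control value is that of replicate 2, and its scanner signal was only 37.1 to 81.7 on the other 8 arrays, near their median.

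Nfe2, the p45 subunit of NF-E2 (chr15:103078838-103078897 on mm9), stayed within a narrow range. It read 15.39, 15.53 and 15.40 in controls, 15.42, 15.42 and 15.59 in Drosha-deleted cells, and 15.63, 15.60 and 15.44 in Dicer-deleted cells. All 3 groups overlapped, and the means were 15.44 ± 0.08, 15.48 ± 0.10 and 15.56 ± 0.10 (SD, n = 3).

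**Figure D1:**
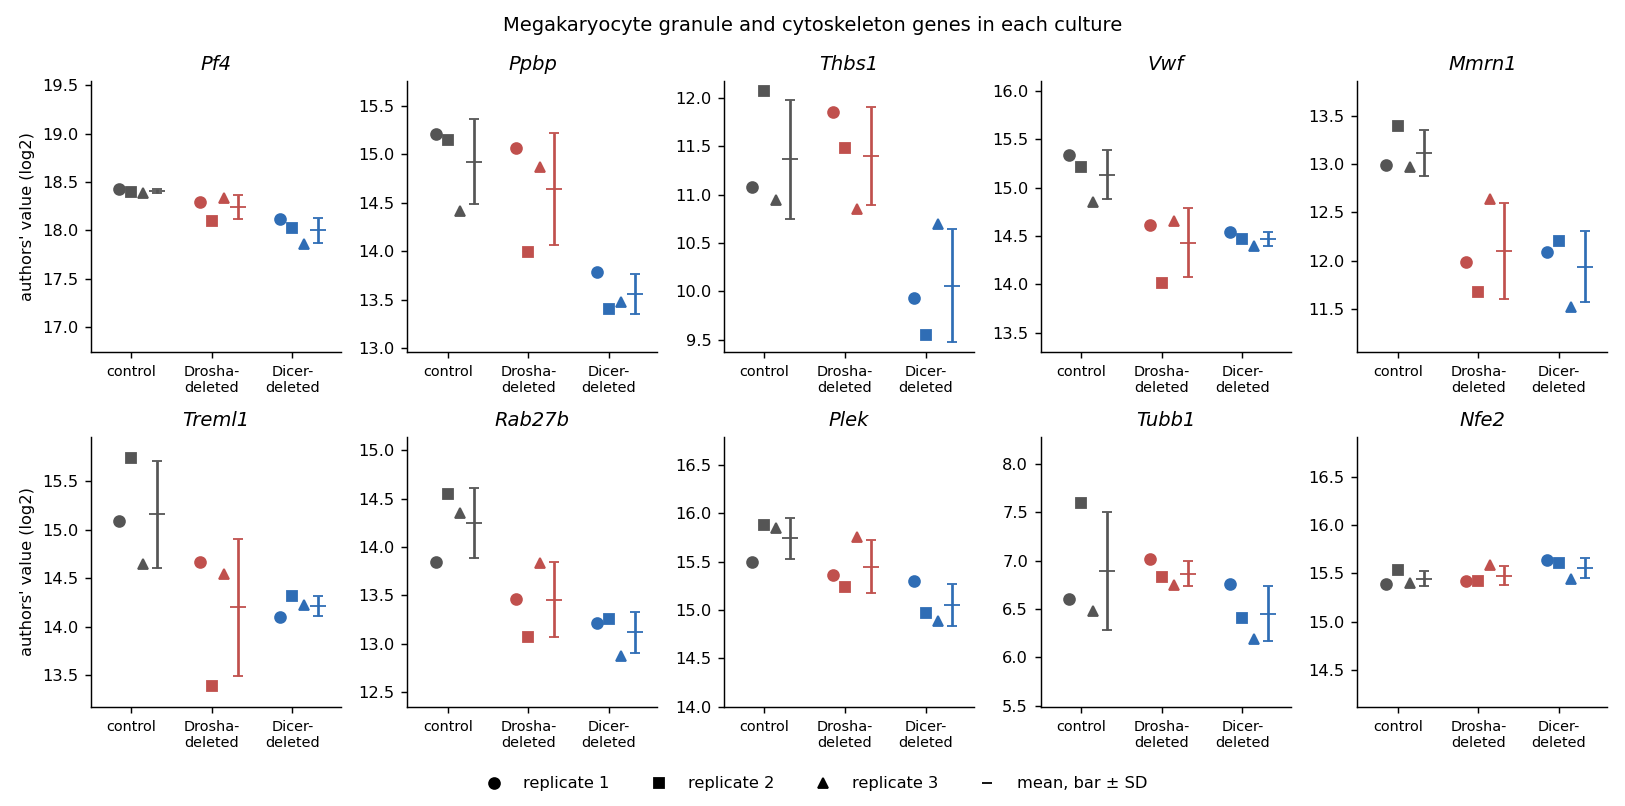
Authors' log2 value (vertical axis, each panel with its own range, all of the same length) of the 10 genes in each culture, by group; points are samples, with a symbol for each replicate number, and bars show the mean ± SD of 3. The Dicer-deleted points lie below all controls in 8 panels and overlap them in Tubb1 and Nfe2.

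In Drosha-deleted cells the 4 members with the lowest means relative to controls were Mmrn1, Treml1, Rab27b and Vwf, and none passed the test. Mmrn1 was at 12.10 ± 0.49 against 13.12 ± 0.24 (SD, n = 3), a log2 difference of −1.01 (SE 0.27, 2.02-fold lower, adjusted p = 0.103 in limma). Treml1 was at 14.20 ± 0.71 against 15.16 ± 0.55, a difference of −0.96 (SE 0.36, 1.95-fold, adjusted p = 0.143). Rab27b differed by −0.79 (SE 0.24, 1.73-fold, adjusted p = 0.116). Vwf differed by −0.70 (SE 0.20, 1.63-fold, adjusted p = 0.108). Granule chemokines and the other members were closer to the controls: Plek was at −0.29, Ppbp at −0.28, Pf4 at −0.17 and Tubb1 at −0.03, and Thbs1 and Nfe2 both at 0.03. The interval of the Thbs1 difference ran from −0.85 to 0.92, so a change of that size was within its error, whereas that of Nfe2 ran from −0.22 to 0.29 (95%).

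The count of members past an adjusted p of 0.05 in limma was 0 of 10, where 0.169% of 23041 features passed. At an unadjusted p under 0.05, 4 of 10 members were lower, the 4 named, and 0 higher, where 11.5% of all features were lower and 15.4% higher. Groups did not overlap, with the deletion lower, for 4 of 10 (Pf4, Vwf, Rab27b and Mmrn1), where 10.5% of features did so. The median over members was −0.29, and −0.00 over all features. Drosha-deleted replicate 2 was the lowest of its group for 7 of 10 members, and without it Treml1 moved to −0.55 and Ppbp to 0.04. The same comparison with control replicate 1 as the only control left 1 of 10 lower at an unadjusted p under 0.05, Vwf at −0.90, where 1.97% of features were. All Drosha-deleted arrays were then below the control for 6 of 10 members, where 21.6% of features were. Without control replicate 1, Rab27b (−0.99, adjusted p = 0.0127) and Mmrn1 (−1.08, adjusted p = 0.0320) passed, but so did 33.6% of all features, 15.3% lower. In the scanner signal without control replicate 2, 3 of 10 were lower at an unadjusted p under 0.05, where 4.08% of features were. In the scanner signal of all 9 arrays 0 of 10 were lower at that level (1.29% of features) and 0 of 10 without overlap (1.62%). The members' median was then 0.15, where that of all features was 0.36.

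Dicer-deleted cells had lower means than controls for 9 of 10 members, with Ppbp, Thbs1, Mmrn1 and Rab27b the farthest. Ppbp was at 13.55 ± 0.21 against 14.93 ± 0.44 (SD, n = 3), a log2 difference of −1.37 (SE 0.31, 2.59-fold lower, adjusted p = 0.132 in limma). Thbs1 was at 10.06 ± 0.58 against 11.36 ± 0.61, a difference of −1.30 (SE 0.39, 2.47-fold, adjusted p = 0.165). Mmrn1 was at 11.94 ± 0.36, a difference of −1.17 (SE 0.27, 2.26-fold, adjusted p = 0.139). Rab27b was at 13.12 ± 0.21 against 14.25 ± 0.36, a difference of −1.13 (SE 0.24, 2.19-fold, adjusted p = 0.132), and its second probe differed by −0.92.

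The other members of the same comparison were Treml1 at −0.95 (adjusted p = 0.193), Plek at −0.69 (adjusted p = 0.151), Vwf at −0.67 (adjusted p = 0.165) and Pf4 at −0.41 (adjusted p = 0.163). Tubb1 was at −0.44 (95% interval −1.08 to 0.20). Nfe2 was at 0.12, with an interval of −0.14 to 0.38 (95%).

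None of the 10 passed an adjusted p of 0.05, where 0.0174% of features passed in limma. At an unadjusted p under 0.05, 8 of 10 were lower and 0 higher, all but Tubb1 and Nfe2, where 9.12% of features were lower and 12.8% higher. The same 8 had groups that did not overlap, where 9.96% of features did so in that direction. The median over members was −0.82. With control replicate 1 as the only control, 5 of 10 were lower at an unadjusted p under 0.05 (Pf4, Ppbp, Vwf, Rab27b and Mmrn1), where 2.2% of features were, and all Dicer-deleted arrays were below the control for 8 of 10, where 21.3% were. The median was then −0.80, and Ppbp was at −1.66. Without control replicate 1, 6 of 10 passed an adjusted p of 0.05, from Rab27b (−1.33, adjusted p = 0.00437) to Thbs1 (−1.45, adjusted p = 0.0435), with Plek, Mmrn1, Ppbp and Pf4 between them, but 30.5% of all features passed too, 13.7% lower. In the scanner signal without control replicate 2, 7 of 10 were lower at an unadjusted p under 0.05, where 3.11% of features were. In the scanner signal of all 9 arrays 0 of 10 were lower at that level (1.28% of features) and 0 of 10 without overlap (1.55%). The members' median was then −0.35, where that of all features was 0.38. Both deletions were set against the same controls, so a control array that stands apart moves both comparisons.

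**Figure D2:**
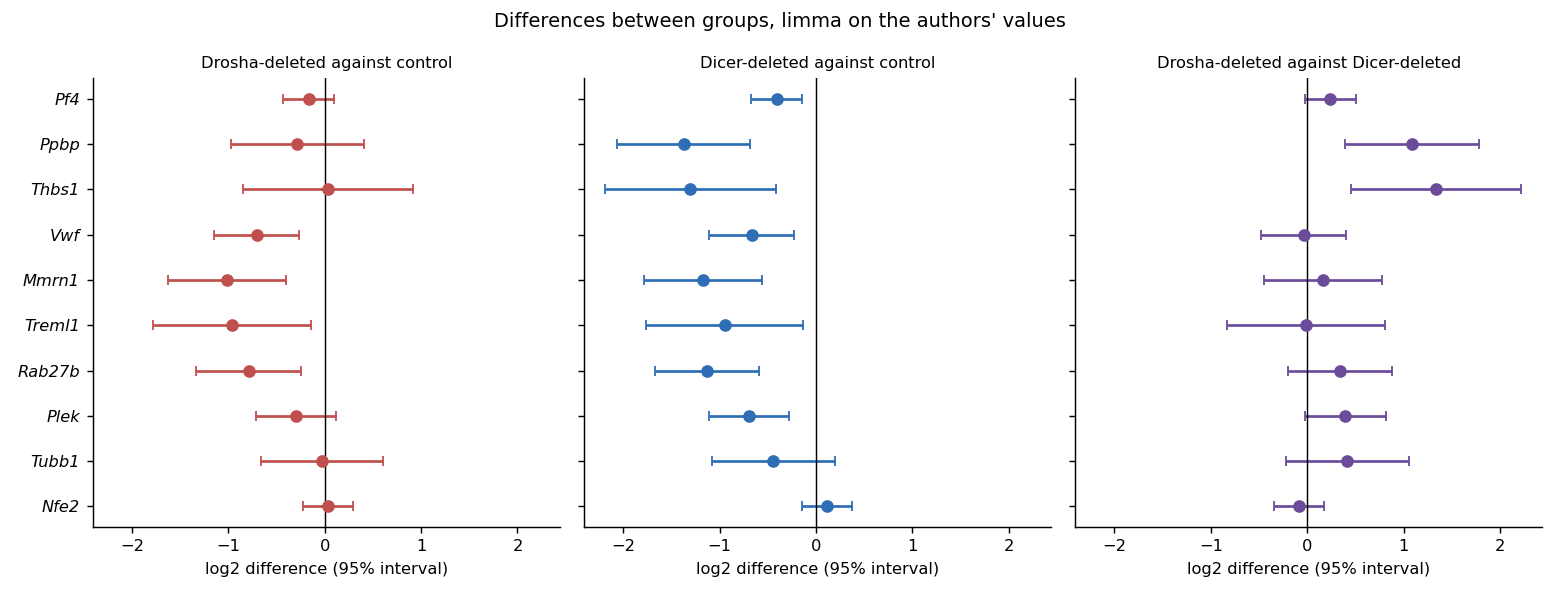
Log2 difference (horizontal axis) of each of the 10 genes in the 3 comparisons, from limma on the authors' values; points are differences and bars 95% intervals. In Dicer-deleted cells the intervals of 8 genes lie below 0, and in the comparison of the deletions those of Ppbp and Thbs1 lie above 0.

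The deletions were also set against each other, which does not involve the controls' levels. The controls' spread still enters the SEs and p-values, because all 9 arrays share an estimate of spread. Ppbp and Thbs1 had higher means in Drosha-deleted than in Dicer-deleted cells, and the groups did not overlap. For Ppbp the difference was 1.09 (SE 0.31, 2.13-fold, adjusted p = 0.500 in limma), and for Thbs1 1.34 (SE 0.39, 2.52-fold, adjusted p = 0.536). In the authors' values these 2 were the only members without overlap, where 8.62% of features had none in that direction, and the only ones at an unadjusted p under 0.05, where 3.22% were higher. In the scanner signal of all 9 arrays the same 2 were higher at an unadjusted p under 0.05 (1.06% of features), and 5 of 10 had no overlap (Pf4, Ppbp, Thbs1, Plek and Tubb1), where 7.58% of features had none in that direction. None passed an adjusted p of 0.05 in the authors' values, where 0.0564% of features did, or in that scanner signal, where 0.00868% did. With each of the 6 deletion arrays left out in turn, Ppbp lay between 0.88 and 1.42 and Thbs1 between 1.08 and 1.65. The median over members was 0.29. A higher level after Drosha than after Dicer deletion was also seen outside the members. In the authors' values 6 of 17 megakaryocyte receptors were higher at an unadjusted p under 0.05 and 0 lower (median 0.37). Of 27 other cytoskeleton genes 6 were higher and 0 lower (median 0.16). Monocyte and macrophage markers went the other way, with 0 of 12 higher and 4 lower, where 2.43% of features were lower.

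For the members with the lowest means in Drosha-deleted cells the deletions were close together, as far as the intervals allow. Vwf differed between them by −0.04 (95% interval −0.48 to 0.40), Treml1 by −0.01 (−0.83 to 0.81) and Mmrn1 by 0.16 (−0.45 to 0.77). Rab27b stood at 0.34, Plek at 0.40, Tubb1 at 0.41, Pf4 at 0.24 and Nfe2 at −0.08, all with intervals that held 0. A miss of the threshold does not show equal levels.

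**Figure D3:**
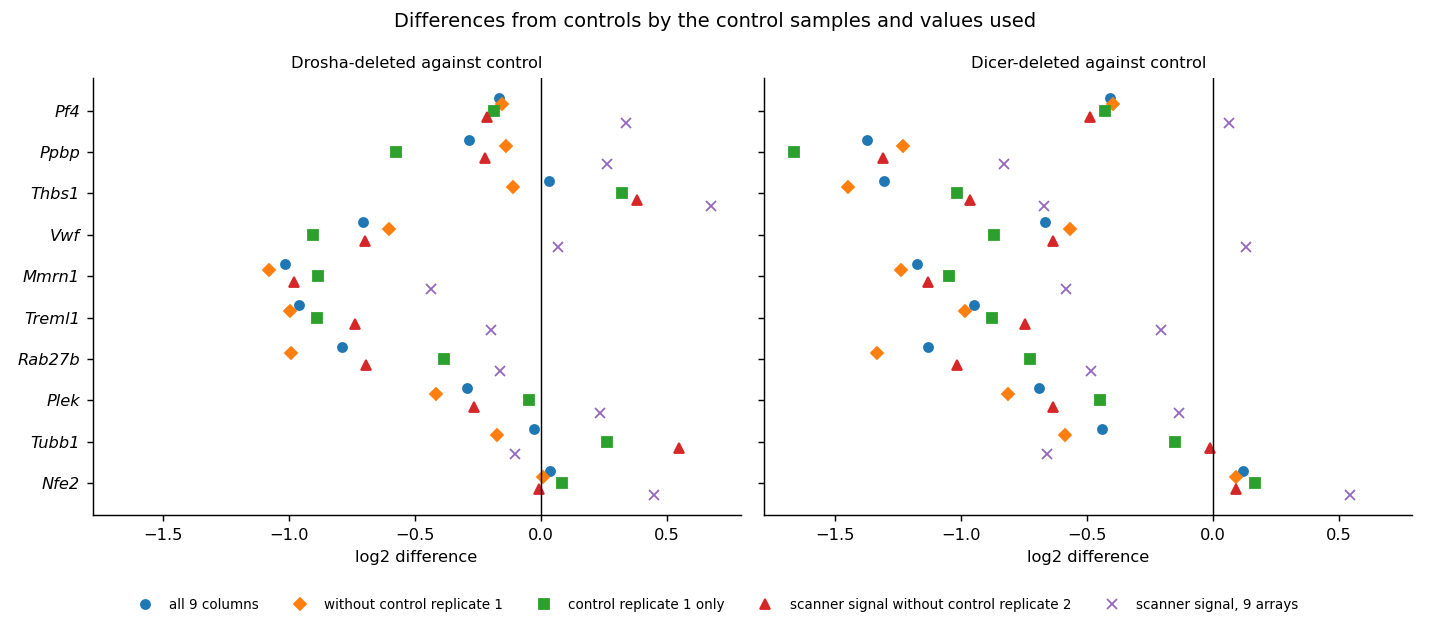
Log2 difference (horizontal axis) of each gene from controls in Drosha-deleted (left) and Dicer-deleted (right) cells under 5 choices of control samples and values, 1 symbol for each choice. The scanner signal with all 9 arrays (crosses) lies to the right of the other 4 choices for 9 of 10 genes in both panels, all but Tubb1. The members' median shift from the authors' values was 0.56 and 0.57. The median difference of all features, which is not a shift per gene, was 0.36 and 0.38 in that signal. In the authors' values it was −0.00 in both comparisons.

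Across the 9 columns most members varied together. The correlation of a member with the mean of the other 9, after each was standardised, was 0.91 for Rab27b, 0.89 for Mmrn1, 0.88 for Pf4, 0.87 for Plek, 0.83 for Ppbp, 0.82 for Treml1 and 0.78 for Vwf. It was lower for Tubb1 at 0.66 and Thbs1 at 0.48, and −0.16 for Nfe2. The closest pairs were Mmrn1 with Rab27b (0.95), Vwf with Treml1 and Plek with Rab27b (both 0.92). These are descriptions over columns that share groups, a slide and controls. Control replicate 2 held the highest control value for 7 of 10 members and control replicate 3 the lowest for 7, and Dicer-deleted replicate 3 was the lowest of its group for 7.

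Likeness to the mean standardised pattern over the 9 columns was ranked among features with gene symbols that are not members. The most alike were Clec9a, Serpina3b, Pde3a, Kalrn and Tmem40 (each r = 0.96) and Trpc6 (r = 0.95). Pde3a, a cyclic nucleotide phosphodiesterase, had group means of 7.87, 7.30 and 6.69 for control, Drosha-deleted and Dicer-deleted cells, and Trpc6, a cation channel, had 12.28, 11.98 and 11.42. The least alike were Rph3a (−0.94), Olfr578 (−0.93) and Pik3cd (−0.92). They were picked for this likeness from the genes with symbols among the 23041 features, with region, accession-like and predicted-gene names left out.

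For megakaryocyte genes outside the list, counts at an unadjusted p under 0.05 stand against 11.5% of features lower and 15.4% higher in Drosha-deleted cells, and 9.12% and 12.8% in Dicer-deleted cells. In Dicer-deleted cells 11 of 17 receptor genes were lower and 0 higher at an unadjusted p under 0.05, with a median of −0.64, and 0 passed the adjusted threshold. Gp6, the collagen receptor glycoprotein VI, was at −1.46, Itga2, the alpha-2 chain of the collagen-binding integrin, at −0.64 (both adjusted p = 0.118 in limma), and Gp1bb, a chain of the receptor for von Willebrand factor, at −0.71 (adjusted p = 0.139). In Drosha-deleted cells 4 of 17 were lower and 0 higher at that level, with a median of −0.18, and Itga2 (−0.43, adjusted p = 0.106), Mpig6b, an inhibitory receptor (−1.03, adjusted p = 0.107), and Cd9, a tetraspanin (−0.57, adjusted p = 0.109), had the smallest adjusted p. With control replicate 1 as the only control, 10 of 17 receptors were lower in Dicer-deleted cells (median −0.53) and 2 of 17 in Drosha-deleted cells (median −0.31), where 2.2% and 1.97% of features were. In the scanner signal of all 9 arrays 3 of 17 receptors were lower in Dicer-deleted and 0 of 17 in Drosha-deleted cells. Of all features 1.28% were lower in Dicer-deleted and 1.29% in Drosha-deleted cells, shares that also stand beside the scanner counts of the lists that follow. The receptor medians were −0.04 and 0.23, where those of all features were 0.38 and 0.36.

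Of 26 other granule genes, 0 passed the adjusted threshold in either comparison with controls. At an unadjusted p under 0.05, 5 were lower and 0 higher in Drosha-deleted cells (median −0.14), and 6 lower and 1 higher in Dicer-deleted cells (median −0.17). Slc35d3, a transporter needed for dense granules, had control, Drosha-deleted and Dicer-deleted means of 11.89 ± 0.07, 11.39 ± 0.26 and 11.01 ± 0.09 (SD, n = 3), with adjusted p of 0.112 and 0.118. The growth factor genes Pdgfa in Drosha-deleted cells (−1.06, adjusted p = 0.100) and Pdgfb in Dicer-deleted cells (−1.14, adjusted p = 0.132) were also among those with the smallest adjusted p. With control replicate 1 as the only control, 2 of 26 were lower in Drosha-deleted and 4 of 26 in Dicer-deleted cells, and in the scanner signal of all 9 arrays 0 in both.

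Of 27 other cytoskeleton genes, 0 passed the adjusted threshold against controls. At an unadjusted p under 0.05, 3 were lower and 2 higher in Drosha-deleted cells (median 0.02), and 10 lower and 0 higher in Dicer-deleted cells (median −0.11). Tpm4, a tropomyosin, was at −1.04 (adjusted p = 0.118) and Vcl, vinculin, at −0.70 (adjusted p = 0.151) in Dicer-deleted cells. Myl9, a myosin light chain, had differences from controls of 0.87 after Drosha and −1.22 after Dicer deletion (adjusted p = 0.122 and 0.140), and differed between the deletions by 2.09 (adjusted p = 0.0623). With control replicate 1 as the only control, 0 of 27 were lower after Drosha and 3 of 27 after Dicer deletion, and in the scanner signal of all 9 arrays 0 and 1.

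Transcription factors of the lineage had medians of −0.18 and −0.13 over 17 genes in Drosha-deleted and Dicer-deleted cells, and 0 passed the adjusted threshold. At an unadjusted p under 0.05 there were 0 lower and 1 higher, Srf (0.61, adjusted p = 0.0917), in Drosha-deleted cells, and 4 lower and 1 higher in Dicer-deleted cells. Gata1, which with its cofactors drives megakaryocyte and red cell genes, was at −0.49 and Tal1 at −0.98 in Dicer-deleted cells (both adjusted p = 0.165), and Srf, which serves actin genes, at 0.43 (adjusted p = 0.178). Nfe2, of the same class, was at 0.12. With control replicate 1 as the only control, or in the scanner signal of all 9 arrays, 0 of 17 were lower in either deletion. Without control replicate 1 members of all 4 lists passed the adjusted threshold with a lower level: 6 of 17 receptors, 4 of 26 granule, 7 of 27 cytoskeleton and 3 of 17 transcription factor genes after Dicer deletion, and 3, 2, 4 and 2 after Drosha deletion, where 13.7% and 15.3% of features did.

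**Figure D4:**
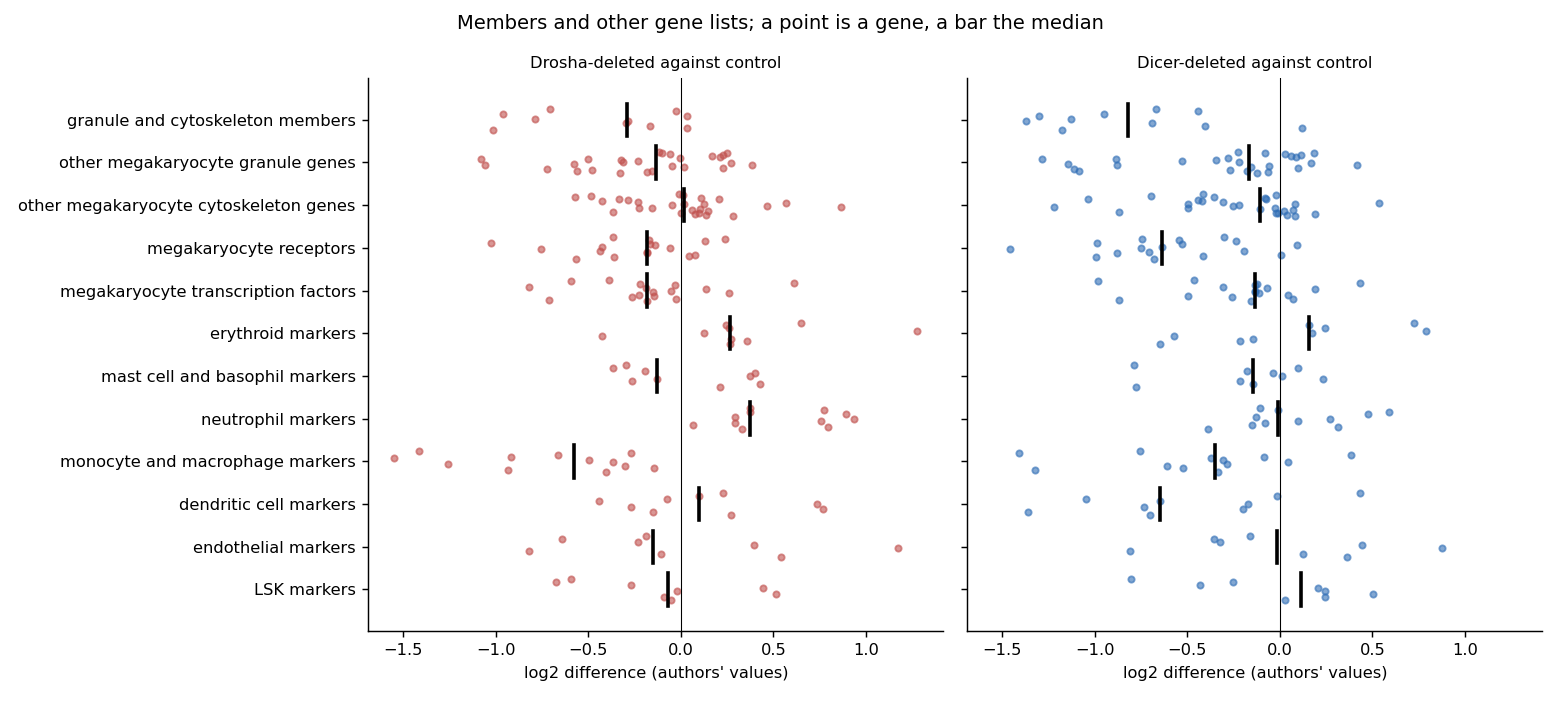
Log2 difference from controls (horizontal axis, authors' values) of the genes in the members' list and in 11 other lists, Drosha-deleted at left and Dicer-deleted at right; a point is a gene and a bar the list's median. The members' medians are at −0.29 and −0.82, the receptors' at −0.18 and −0.64, and the median of all features is −0.00 in both.

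Markers of other cell types moved with the groups in part. Monocyte and macrophage markers had a negative difference for 12 of 12 in Drosha-deleted cells (median −0.58), where Cd14 fell by 1.26 (adjusted p = 0.0300 in limma) and was the 1 marker called, and for 10 of 12 in Dicer-deleted cells (median −0.35). The Cd14 call was lost with control replicate 1 as the only control (−1.15, adjusted p = 0.403) and in the scanner signal of all 9 arrays (−0.33, adjusted p = 0.799), and was kept without control replicate 1 (−1.32, adjusted p = 0.00137). The marker differences that follow use all 3 controls unless another choice is named. The log2 of their summed level was 14.91 to 15.69 in controls, 14.63 to 14.92 after Drosha deletion and 14.63 to 15.59 after Dicer deletion. Dendritic cell markers had a median of 0.10 and −0.65 over 9 of 10 tested, and summed to 17.05 to 17.25, 16.96 to 17.37 and 16.69 to 17.07. Red cell markers had medians of 0.26 and 0.16, with sums of 13.14 to 13.47, 13.07 to 13.76 and 12.95 to 13.49. The members summed to 19.08 to 19.25 in controls, 18.69 to 19.04 after Drosha deletion and 18.52 to 18.77 after Dicer deletion. Neither deletion overlapped the controls. After Dicer deletion this was not particular to the members. The sums of the receptors, other granule genes, other cytoskeleton genes and transcription factors then also lay below all controls. For the receptors they were 16.93 to 17.00 against 17.25 to 17.65. After Drosha deletion the sums of these lists overlapped the controls. The sums add linear signals, so Pf4, the brightest member, weighs most: in control replicate 1 it read 18.43, where the sum was 19.15.

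Endothelial markers, which matter for Vwf, had medians of −0.15 and −0.02 over 8 of 10 tested. Their sums were 14.25 to 14.54, 14.48 to 14.81 and 14.50 to 14.80. At an unadjusted p under 0.05 in limma, 2 were lower and 2 higher in each deletion. Of all features, 11.5% were lower and 15.4% higher after Drosha deletion, and 9.12% and 12.8% after Dicer deletion. On each array 7 or 8 of the 8 tested were well above background. Cdh5 and Emcn were not well above background on all arrays of any group. Medians were 0.38 and −0.01 for neutrophil markers (11 of 12 tested), −0.13 and −0.14 for mast cell and basophil markers (9 of 10), and −0.07 and 0.12 for LSK markers (8 of 8), all without a call. The neutrophil difference was positive for 11 of 11 after Drosha deletion and 5 of 11 after Dicer deletion. Of all features, 50.3% and 50.2% had a negative difference. With control replicate 1 as the only control, the neutrophil difference was negative for 9 of 11 (median −0.10) and 11 of 11 (median −0.57), so its direction depended on the controls used. Neutrophil sums overlapped, at 19.48 to 20.34 in controls, 19.97 to 20.44 after Drosha deletion and 18.97 to 20.30 after Dicer deletion. Lineage markers had medians of 0.76 and 0.60 over 4 of 8 tested. These medians were only 0.14 and 0.05 with control replicate 1 as the only control. Tpsab1, Xcr1 and Cd8a, like Cdh5 and Emcn, were among the markers that did not enter the tests for that reason, and Ly6g was not matched to a probe. The part of other cell types in the members' differences was not tested.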

How the data were processed

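RNA from 9 cultures was read on Agilent arrays of design 028005. The deposited scanner files hold Cy3 intensity values, made per the file headers with Feature Extraction 10.7.3.1 (protocol GE1_107_Sep09) on probes placed on mm9, together with the deposited flags for spots well above background and saturated spots. The authors' deposited log2 values share nearly the same median in every column, with probes not centred, and the submitters' processing notes name limma without a version. The sources used here do not give the other steps. Columns were joined to probes through the feature number.

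Control spots were left out. Of 55681 probes, 31477 entered, those called well above background in all arrays of 1 group or more. The probe with the highest mean stood for a gene, which gave 23041 features. The authors' log2 values were fitted with limma 3.58.1 in R 4.3.3 (data.table version 1.17.8), a mean per group over all 9 arrays, two-sided moderated tests and Benjamini-Hochberg adjustment over all features at 0.05. The check on scanner signal used log2 of the processed signal less each array's 75th percentile. The fit was tested on simulated data with independent noise around each feature's mean. Control columns that stand apart together were not simulated, so that test does not bear on them. Named are all members, Drosha, Dicer1 and up to 3 genes per other list with the smallest adjusted p in a comparison. Also named are the 6 most and 3 least alike features with gene symbols. The members, lists and alternatives were chosen with earlier results of these data known. Genes outside that rule are named only where a count of 5 or fewer is spelled out.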

Additional observations from a re-analysis of the deposited data

How the results depend on the processing

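With all 9 columns no member passed an adjusted p of 0.05 in any comparison, and this held in every other choice run except 1. Leaving out single arrays gave 0 to 2 members called for Drosha-deleted and 0 to 6 for Dicer-deleted cells against controls, both upper values without control replicate 1, and 0 throughout between the deletions. Over all features the counts of 39, 4 and 13 became 4 to 7743, 0 to 7023 and 4 to 16 with an array left out, and 1 to 38, 0 to 21 and 1 to 13 under the other choices. No pairing by replicate number was seen, as deviations of same-numbered samples correlated at −0.28 to 0.24 and others at −0.29 to 0.28. Pairing is not excluded, since donors are not given and the column of control replicate 2 did not match its own file. With the replicate number as a block, 0 members and 4, 0 and 5 features were called. Some differences turned their sign, and the cause was not tested. For Drosha-deleted against control, the scanner signal on 9 arrays gave Pf4 0.34, Ppbp 0.26, Vwf 0.067 and Plek 0.23, and without control replicate 2 it gave Tubb1 0.55 and Nfe2 −0.0081. Tubb1 was 0.22 with normexp and quantile normalisation and 0.26 with control replicate 1 as the only control (chosen after the data were seen), and Thbs1 was −0.18 with the slide as a block. Leaving out single arrays gave ranges of −0.54 to 0.043 for Ppbp (above 0 without Drosha-deleted replicate 2), −0.20 to 0.38 for Thbs1, −0.23 to 0.32 for Tubb1 and −0.023 to 0.079 for Nfe2. For Dicer-deleted against control, the scanner signal on 9 arrays gave Pf4 0.064 and Vwf 0.13. Between the deletions, Treml1 was 0.0088 in the scanner signal with or without control replicate 2 and 0.0080 with normexp. With single arrays left out it ran from −0.25 to 0.40, Vwf from −0.15 to 0.17 and Mmrn1 from −0.11 to 0.37. Of the members' values under the alternatives, 151, 162 and 162 kept their direction and side of the threshold in the 3 comparisons, 17, 2 and 8 turned, and 2, 6 and 0 passed the threshold. Tubb1, whose signal lay near the array median, is the member that background limits most.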
